A study of Mus musculus with 12 samples.

Results

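The subunits of oxidative phosphorylation (OXPHOS) were followed in MLL-AF9 leukemia cells that had grown in 3 kinds of host. Genes were taken by symbol: those starting with Ndufa, Ndufb, Ndufc, Ndufs, Ndufv, Sdh, Uqcr, Cox4 to Cox8, Atp5, mt-Nd, mt-Co, mt-Cytb or mt-Atp, leaving out Ndufaf genes and symbols with -ps. Of the 55401 genes in the table, 107 had such a symbol, and 87 of them had a mean of at least 1 TPM, a read count divided by transcript length and scaled to the same total in every library, over the 12 libraries. All 87 are encoded in the nucleus. They comprise 79 subunits, of which 36 belong to complex I, 4 to complex II, 8 to complex III, 15 to complex IV and 16 to complex V, together with 5 assembly or coupling factors and 3 genes annotated as processed pseudogenes that the symbols also took in.

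The leukemia cells carried the MLL-AF9 fusion oncogene with GFP, were derived from transduced bone marrow progenitors and had been maintained through many serial transplantations, so all 3 groups share 1 leukemia line. They were transplanted into WT (C57BL/6), Rag2-/- (C57BL/6J-Rag2em3Lutzy/J) or NSG mice that had not been irradiated, were female and were 8 to 12 weeks old. Rag2-/- mice lack mature T and B cells but keep NK cells, and NSG mice lack T, B and NK cells. GFP+ cells were sorted from the bone marrow, and 4 libraries labelled as biological replicates were made per host. The paper states that the profiled cells came from moribund mice. It reports that AML arose earlier in NSG and progressed more slowly in Rag2-/- than in WT mice. The days of collection are not given, so disease course and host cannot be told apart. NSG mice are of another strain background than the other hosts, so background and immune status cannot be told apart in comparisons with NSG.

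Oxidative phosphorylation is the main route by which mitochondria make ATP. Complex I and complex II pass electrons from NADH and succinate to ubiquinone, complex III passes them on to cytochrome c, complex IV reduces oxygen, and complex V, the ATP synthase, uses the proton gradient that complexes I, III and IV build. Complexes I, III, IV and V each hold subunits encoded in mitochondrial DNA, while complex II is encoded in the nucleus alone. Acute myeloid leukemia cells, and leukemia stem cells in particular, are known to depend on oxidative phosphorylation.

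Between 16008909 and 42811379 reads per library lay behind these values, recovered from the deposited TPM and annotated exon lengths. Of the recovered values up to 20 reads, 31.2% to 34.3% were odd numbers, so what 1 read is worth, and with it these totals, is uncertain. On this scale a gene with 1 kb of exons and 3 reads would stand at 0.249 to 0.647 TPM. All 9 genes of the myeloid leukemia list were present, though not all at like levels in the hosts. Mpo was 70.1 to 287 TPM in Rag2-/-, 508 to 593 TPM in WT and 219 to 710 TPM in NSG libraries. Itgam went the other way, at 98.9 to 112, 78.7 to 87.1 and 67.3 to 93.7 TPM in the same order. Kit overlapped between the hosts. The 9 neutrophil genes summed to 411 to 1738 TPM in Rag2-/- libraries, 71.4 to 113 in WT libraries and 99.6 to 146 in NSG libraries, and all 9 were at a mean of at least 1 TPM. Of the 9 T and NK cell genes, 8 were under 1 TPM, and of the 8 erythroid genes, 6 were. Ncr1, of the T and NK cell list, was 0.108 to 0.531 TPM in Rag2-/- libraries and listed at 0 in all others. These values lay within or below the 0.249 to 0.647 TPM of 3 reads on 1 kb. Of the 7 B cell genes, 4 were at a mean of at least 1 TPM, while Ms4a1 and Pax5 were under 1 TPM. The list summed to 125 to 232 TPM over all libraries, mostly from Ighm, which had a mean of 174 TPM. Igkc was 0.745 TPM in WT replicate 2 and at least 4.05 TPM in every other WT library. In Rag2-/- and NSG libraries Igkc was at most 0.676 TPM. Of the 7 macrophage genes, 5 were at least at 1 TPM, and the list summed to 99.2 to 112 TPM in Rag2-/- libraries, 89.0 to 95.9 in WT libraries and 54.3 to 111 in NSG libraries. C1qa, C1qb and C1qc were higher in each Rag2-/- library than in any WT or NSG library, with C1qb at 5.43 to 12.2 TPM against at most 4.47 TPM. Adgre1 and Vcam1, of the same list, overlapped between the hosts. Adgre1 was 50.9 to 62.5 TPM in Rag2-/- and 56.4 to 59.2 TPM in WT libraries. Vcam1 was 29.8 to 34.9 TPM in Rag2-/- and 23.3 to 35.4 TPM in WT libraries. The neutrophil genes, C1q genes, Itgam and, at values under 1 TPM, Ncr1 thus differed with the Rag2-/- host. Mpo and, by a narrow margin, Nkg7 differed between Rag2-/- and WT hosts, and both were lower in Rag2-/- libraries. Igkc, alone of the B cell genes at a mean of at least 1 TPM, differed with the WT host, by a narrow margin in WT replicate 2. The part of these genes' cells in the OXPHOS values was not tested. In bulk RNA, fewer cells of a type and less RNA per cell cannot be told apart.

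The mitochondrially encoded subunits could not be compared. All 13 protein-coding genes of mitochondrial DNA were listed at 0 in all 12 libraries, as were the 2 ribosomal and 22 transfer RNA genes of chromosome M. These include mt-Nd1 to mt-Nd6 of complex I, mt-Cytb of complex III, mt-Co1 to mt-Co3 of complex IV and mt-Atp6 and mt-Atp8 of complex V, which every respiring cell uses. An exact 0 in a table without read counts does not show why no level was given, so the genes are only said to be listed at 0. Nuclear copies of these genes did carry values. For 11 of the 13 genes, another annotated transcript outside chromosome M matched over at least 100 bases at 90% identity or more, and 10 such copies had a mean of at least 1 TPM. Gm10925 on chromosome 1 (24613974 to 24614651), a pseudogene identical to mt-Atp6 over 678 bases, had a mean of 109 TPM. Gm28438, which matched mt-Nd3 at 99.7% over 345 bases, had a mean of 101 TPM, and Gm28661, identical to mt-Co2 over 681 bases, had 65.3 TPM. The 10 copies summed to 373 to 406 TPM in WT libraries, 410 to 562 in Rag2-/- libraries and 360.1 to 664 in NSG libraries. Reads of mitochondrial transcripts and of these copies cannot be told apart at such identity, so the sums are given as levels of the copies only.

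The nuclear subunits were strongly expressed. Of the 79, 75 had a mean of at least 10 TPM and 53 of at least 100 TPM, with Atp5a1 (851 TPM) and Atp5b (811 TPM), the alpha and beta chains of the ATP synthase head, at the top, followed by Cox6a1 (788 TPM) and Cox8a (712 TPM) of complex IV. In complex I, Ndufb11 (294 TPM) and Ndufa8 (252 TPM) were highest, in complex II Sdhd (292 TPM) and Sdha (193 TPM), and in complex III Uqcr10 (442 TPM) and Uqcrb (289.7 TPM). Just inside the limit of 1 TPM were Cox6a2 at 1.53 TPM and Sdhaf1 at 2.85 TPM, and just outside it were Cox6b2 at 0.674 TPM and Cox8b at 0.519 TPM. Of the 7 nuclear genes under the limit, 4 (Cox7b2, Cox8c, Ndufa4l2 and a second gene named Atp5o) were listed at 0 in every library.

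Isoforms of the same subunit differed widely in level, and the widespread form was the higher one in each pair. Cox4i1 had a mean of 524 TPM and Cox4i2, the form known from lung, 3.82 TPM. Cox6a1 stood at 788 TPM and Cox6a2, the heart and skeletal muscle form, at 1.53 TPM. Cox6b1 stood at 525 TPM and the testis form Cox6b2 at 0.674 TPM. Among the Cox7a genes, Cox7a2 had 291 TPM, Cox7a2l, known for its part in respiratory supercomplexes, 314 TPM and the muscle form Cox7a1 6.26 TPM. Cox7b stood at 277 TPM beside Cox7b2 at 0, and Cox8a at 712 TPM beside Cox8b at 0.519 TPM and Cox8c at 0. Of the 3 genes that encode the c subunit of the ATP synthase, Atp5g2 had 388 TPM, Atp5g3 233 TPM and Atp5g1 64.6 TPM. Ndufa4, counted here with complex IV, had 296 TPM and its relative Ndufa4l2 was listed at 0. The minor forms stood low in all 3 hosts: Cox6a2 ranged from 0 in Rag2-/- replicates 2 and 3 to 4.28 TPM in Rag2-/- replicate 1, and Cox4i2 from 1.64 TPM in WT replicate 1 to 7.65 TPM in NSG replicate 2.

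The summed level of the 79 subunits was lower in Rag2-/- libraries than in WT libraries. It was 15748, 16165, 15317 and 14942 TPM in the WT libraries (mean 15543 ± 529, SD, n = 4). It was 14700.3, 14539, 14213 and 14429 TPM in the Rag2-/- libraries (mean 14470.1 ± 205) and 14492, 15426, 17727 and 16369 TPM in the NSG libraries (mean 16004 ± 1381). The highest Rag2-/- sum lay below the lowest WT sum, whereas the NSG libraries spanned both other hosts, with replicate 1 among the Rag2-/- values and replicate 3 above every other library. By complex, the Rag2-/- and WT sums did not overlap for complexes I, II, IV and V and overlapped for complex III. The gap was narrow for complex IV (highest Rag2-/- sum 4310.5, lowest WT sum 4314.8 TPM) and complex V (4155.8 and 4175.5 TPM). Against NSG, the Rag2-/- sums lay apart for complex IV alone (4227 to 4310.5 against 4362 to 5106 TPM). All members together made up 1.51% to 1.63% of the TPM of a WT library, 1.43% to 1.48% of a Rag2-/- library and 1.46% to 1.78% of an NSG library. No test was made on these sums.

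**Figure D1:**
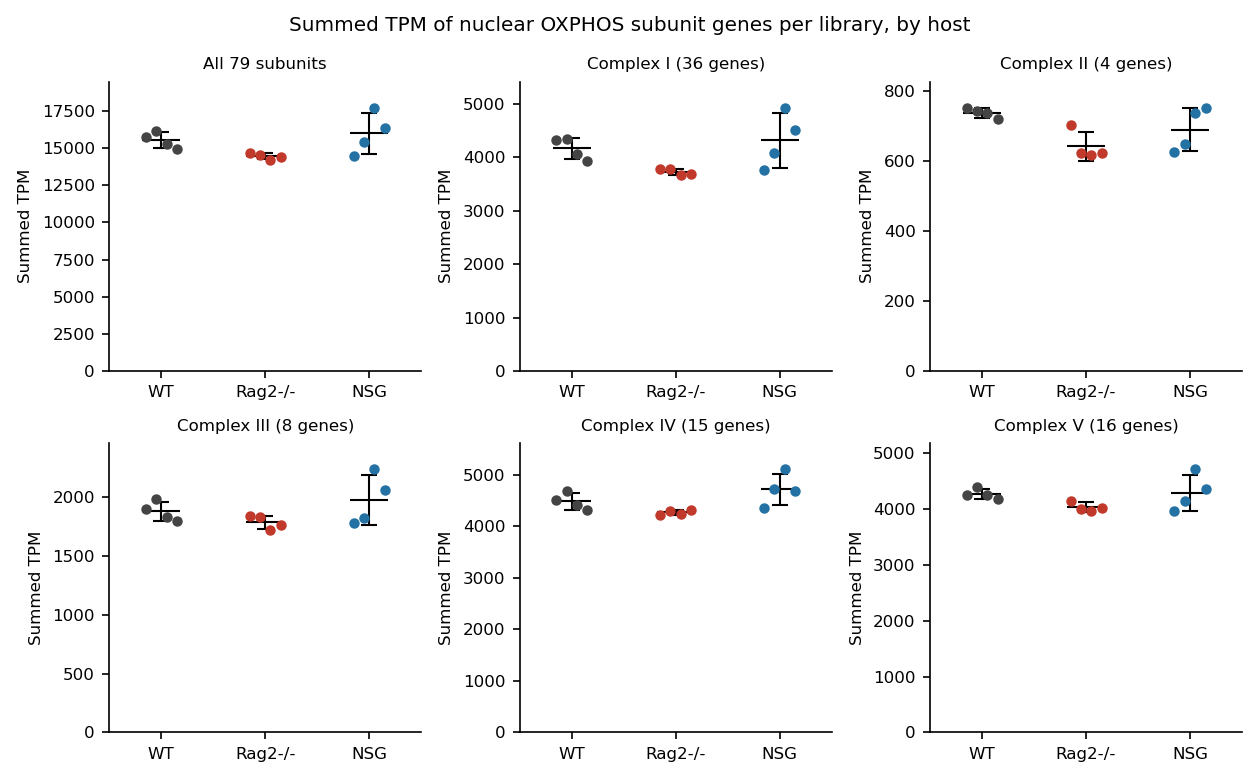
Summed TPM (vertical axes, from 0) of the 79 nuclear OXPHOS subunit genes and of each complex in WT, Rag2-/- and NSG libraries. Each point is 1 library, and bars give the mean and SD of 4. Rag2-/- points lie together between 14213 and 14700.3 TPM for all subunits, while NSG points spread from 14492 to 17727.

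Gene by gene, none of the 87 members was called between Rag2-/- and WT hosts at an adjusted p below 0.05 and a log2 fold change beyond 0.5, where 1.47% of the 15026 genes tested were called. Differences below are log2 fold changes on the log2(TPM + 1) scale, fitted with limma over the 12 libraries, and ± beside a difference is its SE. The median over the members was -0.07, beside 0.02 over all genes tested, and 58 of the 87 members were below 0 (45.5% of all genes). At an unadjusted p below 0.05, 20 members were lower and 2 higher in Rag2-/- cells, beside 8.66% and 12.3% of all genes. Without WT replicate 1 the 20 became 11, and without WT replicate 2 or Rag2-/- replicate 4 they became 12. The share of all genes at this p was not counted in these fits. The 4 Rag2-/- values lay below the 4 WT values for 18 members, against 6.72% of all genes, and above them for 2, against 10.2%. The lowest adjusted p was 0.0691, for Ndufa10, which was higher. For 65 members the 95% interval of the difference lay inside 0.5 either way, beside 56.4% of all genes. A fit of the 8 WT and Rag2-/- libraries alone called 4 members, all lower in Rag2-/- cells: Atp5k (adjusted p = 0.0237), Ndufa2 (0.0246), Atp5e (0.0297) and Sdhaf4 (0.0371). That fit also called more genes in all, 355 of the 15026 tested against 221 in the fit of 12 libraries.

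The difference between Rag2-/- and NSG hosts had the same direction for most members. Again 0 of the 87 were called (0.213% of all genes), the median was -0.13 beside 0.01 over all genes, and 76 members were below 0 (46.6% of all genes). At an unadjusted p below 0.05, 24 members were lower and 0 higher, beside 4.84% and 7.72% of all genes, and for 13 members the 4 Rag2-/- values lay below the 4 NSG values (2.25% of all genes) and above them for 0 (4.34%). Without NSG replicate 1, 37 members were lower at this p, and without NSG replicate 3 or Rag2-/- replicate 3, 20 were. The share of all genes was not counted in those fits. Ndufs6 had the lowest adjusted p (0.066). The interval lay inside 0.5 either way for 64 members, beside 61.5% of all genes. Both comparisons share the Rag2-/- libraries, so their directions are not independent.

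Between NSG and WT hosts, 0 members and 0.0% of all genes were called. The median was 0.06 (all genes 0.00), 32 members were below 0 (48.5% of all genes), 9 were higher and 0 lower at an unadjusted p below 0.05, beside 4.93% and 4.23% of all genes, and the NSG values lay above the WT values for 5 members (2.21% of all genes) and below them for 0 (2.38%). Without NSG replicate 1 or replicate 4, 14 members were higher at this p, and without NSG replicate 3, 6 were lower. Here too the share of all genes was not counted with a library left out. Uqcrb had the lowest adjusted p (0.203). For 69 members the interval lay inside 0.5 either way, beside 61.9% of all genes.

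**Figure D2:**
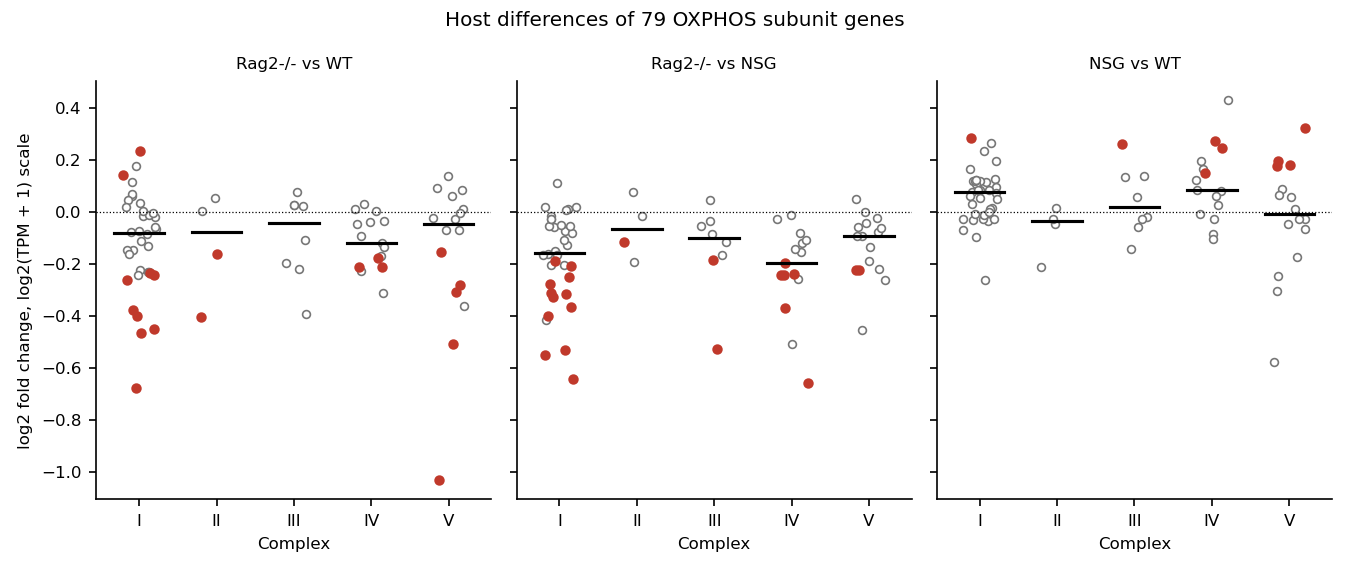
Log2 fold changes, on the log2(TPM + 1) scale (vertical axis), of the 79 subunit genes by complex (horizontal axis) in the 3 host comparisons. Filled points have an unadjusted p below 0.05, open points do not, and bars are medians. All 15 complex IV genes lie below 0 between Rag2-/- and NSG hosts.

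Single libraries held the extremes of many subunits. NSG replicate 3 was the highest of the 12 libraries for 38 of the 79 subunits and NSG replicate 2 for 18, while Rag2-/- replicate 3 was the lowest for 15 and NSG replicate 1 for 14. Among subunits with a mean of at least 10 TPM, the widest range was that of Atp5k, 5.17-fold between its lowest and its highest library, followed by Uqcr11 (2.54-fold) and Ndufa2 (2.39-fold). Ndufb6, Atp5e, Atp5g3, Ndufa1, Ndufs6 and Ndufa12 ranged over 2.04-fold to 2.21-fold. In Atp5k, Ndufa2, Atp5e and Atp5g3, NSG replicates 1 and 2 stood within or below the range of the Rag2-/- libraries, and NSG replicates 3 and 4 within or above that of the WT libraries.

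**Figure D3:**
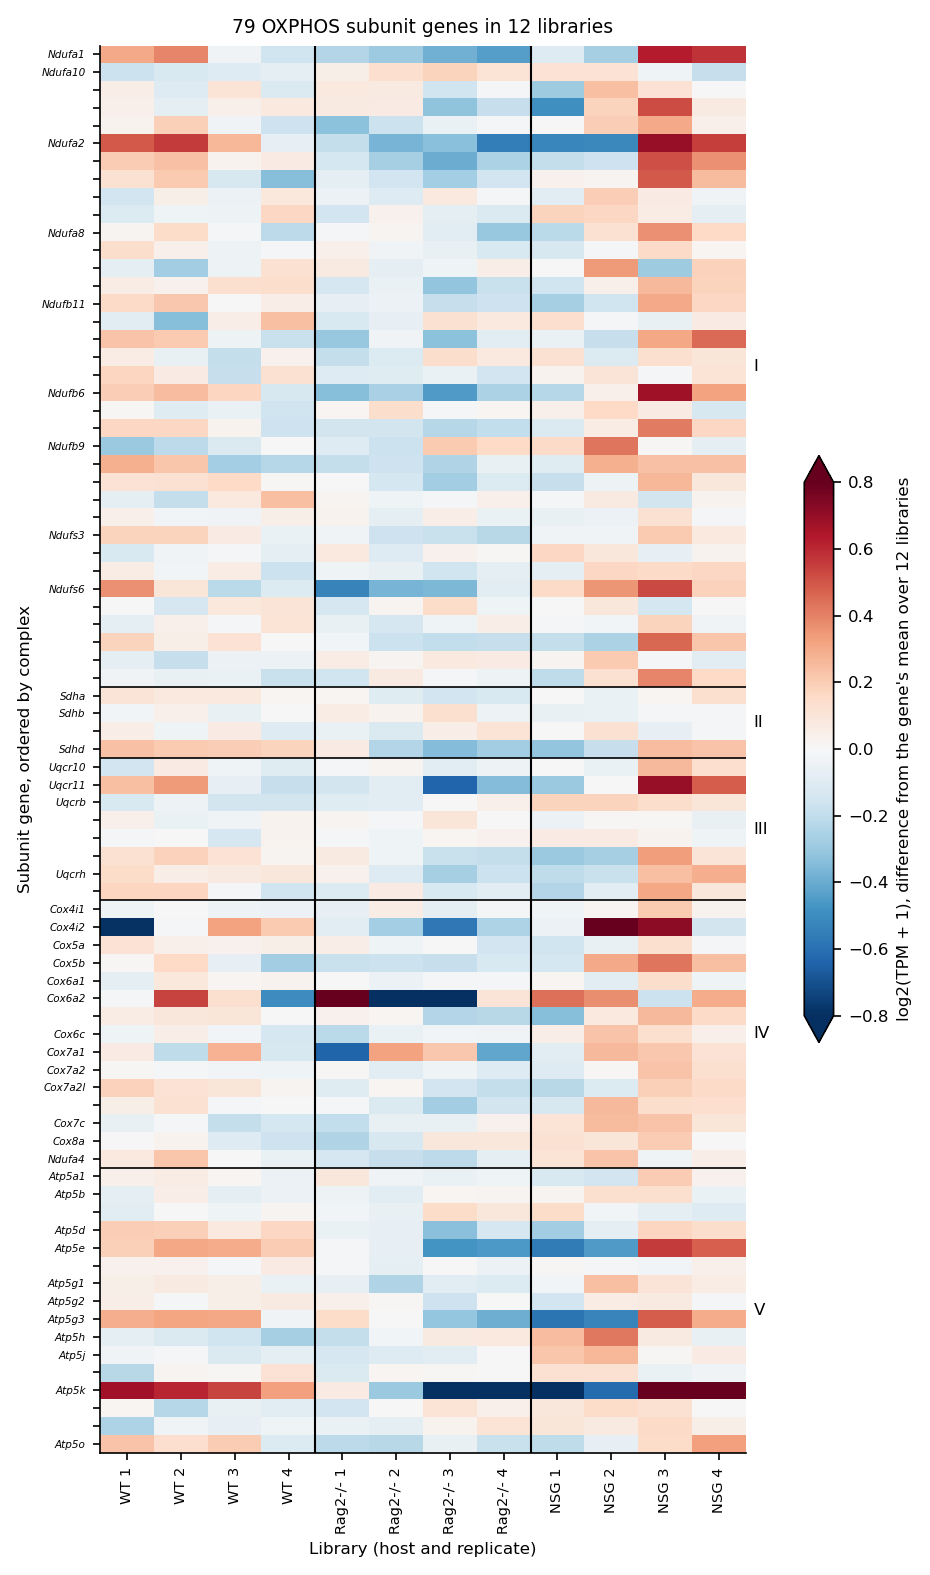
Difference of log2(TPM + 1) from the gene's mean over the 12 libraries (colour, red above and blue below, limited to 0.8 either way) for the 79 subunit genes (rows, by complex, with names for some of the genes) in each library (columns). Atp5k, Ndufa2, Atp5e and Atp5g3 are blue in Rag2-/- replicates 3 and 4 and NSG replicates 1 and 2 and red in NSG replicates 3 and 4.

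The composition of the libraries moved with this pattern. With the members left out, genes with under 1000 bases of exons took 12.9% to 13.7% of the TPM of a WT library, 12.5% to 13.2% of a Rag2-/- library and 13.0% to 14.5% of an NSG library. NSG replicate 3, with the highest sum of subunits, had the highest share, and Rag2-/- replicate 3, with the lowest sum, the lowest. The TPM-weighted G and C content of the other genes' transcripts was 50.6% to 50.9% in WT libraries. It was 50.8% and 50.7% in Rag2-/- replicates 1 and 2 and 50.4% and 50.4% in replicates 3 and 4. In NSG replicates 1 and 2 it was 50.3% and 50.4%, and in replicates 3 and 4 it was 51.0% and 50.9%. Of the 15026 genes tested, 2731 that are no members have under 1000 bases of exons. Of the 79 subunits, 20 do. Between Rag2-/- and WT hosts the median of these 20 was -0.22, that of the other 59 subunits -0.06 and that of 311 other protein-coding genes under 1000 bases -0.03. Between Rag2-/- and NSG hosts the medians were -0.23, -0.09 and -0.13 in the same order. The part of transcript length and base composition in the OXPHOS values was not tested.

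**Figure D4:**
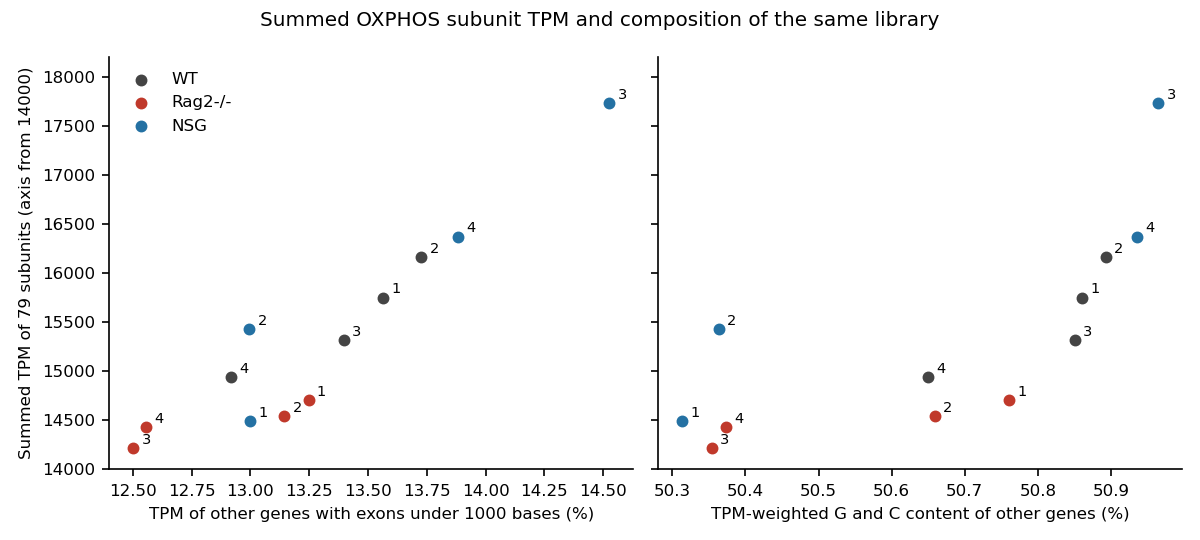
Summed TPM of the 79 subunits (vertical axis, which does not start at 0) against the share of TPM of other genes with under 1000 bases of exons (left) and the TPM-weighted G and C content of other genes (right), both in %. Each point is 1 library, numbered by replicate. NSG replicate 3 has the highest sum (17727 TPM) and the highest share (14.5%).

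Promoters of OXPHOS genes are known for binding sites of nuclear respiratory factor 1 (NRF1), GABP of the ETS family and YY1. RefSeq promoter windows of 300 bases (250 before and 50 after the start, build GRCm38.p6) were matched to 64 of the 79 subunits, in 69 windows. GCGCATGC, a core of the NRF1 motif, was searched on both strands and lay in 10 of the 69 windows (14.5%), against 2.71% of all 32851 windows. The ETS core CCGGAAG lay in 16 (23.2%, against 8.86%) and the YY1 core AAGATGG in 10 (14.5%, against 6.34%). At least 1 of the 3 lay in 30 windows (43.5%, against 16.6%). These windows are counted over all RefSeq genes, expressed or not, and a match is a description of the letters only. The stretch from 120 bases before to 30 after the start is shown for 5 subunits that hold a match and had a lower mean in Rag2-/- libraries than in 1 or both of the other hosts (Atp5k, Uqcr11, Sdhd, Atp5j and Cox7c), and for Ndufa10, which holds none and had a higher mean than in WT libraries. Sequences run 5′ to 3′ along the gene's strand, and capitals mark matches to the 3 motifs on either strand.
Atp5k, chr5:108434370-108434519, minus strand: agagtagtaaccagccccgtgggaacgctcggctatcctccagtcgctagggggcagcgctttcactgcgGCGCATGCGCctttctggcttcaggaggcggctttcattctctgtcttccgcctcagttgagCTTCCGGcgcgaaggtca
Uqcr11, chr10:80406792-80406941, minus strand: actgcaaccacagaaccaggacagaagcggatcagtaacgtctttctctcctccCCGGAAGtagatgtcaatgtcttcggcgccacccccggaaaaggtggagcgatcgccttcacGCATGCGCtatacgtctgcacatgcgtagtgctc
Sdhd, chr9:50603820-50603969, minus strand: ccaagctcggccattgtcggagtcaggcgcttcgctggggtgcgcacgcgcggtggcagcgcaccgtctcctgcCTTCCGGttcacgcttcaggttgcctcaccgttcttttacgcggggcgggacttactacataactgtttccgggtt
Atp5j, chr16:84834947-84835096, minus strand: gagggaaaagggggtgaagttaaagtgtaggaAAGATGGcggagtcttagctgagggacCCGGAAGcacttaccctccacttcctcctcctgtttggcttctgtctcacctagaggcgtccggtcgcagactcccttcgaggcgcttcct
Cox7c, chr13:86046766-86046915, minus strand: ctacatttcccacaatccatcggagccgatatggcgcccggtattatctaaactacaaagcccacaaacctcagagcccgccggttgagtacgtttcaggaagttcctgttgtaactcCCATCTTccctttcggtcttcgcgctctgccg
Ndufa10, chr1:92473729-92473878, minus strand: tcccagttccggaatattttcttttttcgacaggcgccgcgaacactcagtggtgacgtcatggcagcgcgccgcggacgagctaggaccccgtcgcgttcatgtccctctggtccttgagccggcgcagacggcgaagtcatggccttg
In Atp5k, 2 overlapping NRF1 matches started at -50 and -48 and an ETS match at 13, counted from the start. Uqcr11 held an ETS match at -66 and an NRF1 match at -4, Sdhd an ETS match at -46, Atp5j a YY1 match at -88 and an ETS match at -61, and Cox7c a YY1 match at -2. Ndufa10 held none of these letters. Other members with lower means in Rag2-/- than in WT libraries, such as Atp5d, Sdha and Ndufa4, also held no match. Another Atp5j window (84835576 to 84835875), not shown, held none either. Whether matches go with the host differences was not tested.

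Complex I, the NADH dehydrogenase, has 7 core and 29 accessory subunits among the members. The core subunits, which carry the flavin and the iron-sulfur clusters, included 3 that varied little: Ndufs1, Ndufs7 and Ndufs8 had differences between -0.07 and 0.02 in all 3 comparisons. Ndufs3, a core subunit of the peripheral arm (chromosome 2, 90894634 to 90904827), had the smallest p of the core genes between Rag2-/- and WT and between Rag2-/- and NSG hosts. It measured 91.8, 91.6, 84.7 and 77.8 TPM in the WT libraries, 79.3, 72.0, 71.5 and 69.3 TPM in the Rag2-/- libraries and 79.3, 79.3, 93.7 and 85.7 TPM in the NSG libraries. Only the lowest WT and the highest Rag2-/- library overlapped (difference -0.24 ± 0.07, SE, adjusted p = 0.0903). Ndufv2, an iron-sulfur subunit, went the other way: 127, 118, 129.5 and 129 TPM in WT libraries, below the 139, 136, 141 and 140.1 TPM of Rag2-/- libraries (0.15 ± 0.06, adjusted p = 0.205).

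Among the accessory subunits, 20 of 29 were below 0 between Rag2-/- and WT hosts and 27 of 29 between Rag2-/- and NSG hosts. Ndufs6 (ENSMUSG00000021606, chromosome 13, 73319838 to 73328542, minus strand), a zinc-binding subunit near the NADH-oxidising end, was 69.7, 78.2, 78.95 and 95.4 TPM in the Rag2-/- libraries. It was 113, 130.1, 147 and 115 TPM in the NSG libraries and 131, 109, 87.5 and 93.9 TPM in the WT libraries. All Rag2-/- values lay below all NSG values, and the WT values overlapped both. The difference from NSG was -0.64 (95% interval -0.93 to -0.36, adjusted p = 0.066) and from WT -0.37 (-0.66 to -0.09, adjusted p = 0.132). Without Rag2-/- replicate 4, the highest of its host, Ndufs6 was called against NSG at -0.73 (adjusted p = 0.031), and voom on the recovered reads also called it (-0.64, adjusted p = 0.0402).

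Ndufa10, an accessory subunit of the membrane arm with a kinase-like fold (chromosome 1, 92439010 to 92473860), was, with Ndufv2, 1 of the 2 members higher in Rag2-/- than in WT cells at an unadjusted p below 0.05. It measured 96.5, 99.7, 101 and 103 TPM in the WT libraries and 112, 119, 123 and 117 TPM in the Rag2-/- libraries, with no overlap. In NSG libraries it was 118, 118, 106 and 95.6 TPM, from below the WT values to within the Rag2-/- values. The difference between Rag2-/- and WT was 0.23 (0.09 to 0.38, adjusted p = 0.0691).

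Ndufb6, a membrane arm subunit, had the Rag2-/- values below both other hosts: 69.3, 73.6, 64.2 and 73.8 TPM against 101, 105, 99.6 and 80.5 TPM in WT libraries and 75.1, 90.5, 142 and 110.4 TPM in NSG libraries. The differences were -0.45 ± 0.16 (adjusted p = 0.131) and -0.53 ± 0.16 (adjusted p = 0.168). Of its exons, 39% lie within another gene, Smim27, whose reads may not be separable. Ndufa1, a short membrane subunit on chromosome X, was 128, 123, 115 and 111 TPM in the Rag2-/- libraries, below the WT libraries at 186, 198, 147 and 135 TPM. Its NSG libraries split into 140.4 and 125 TPM in replicates 1 and 2 and 234 and 226 TPM in replicates 3 and 4. Ndufa2 split in the same way in NSG hosts, with 158, 158, 368 and 333 TPM, beside 319, 335, 273 and 217 TPM in WT libraries and 199, 175, 180.0 and 154 TPM in Rag2-/- libraries. Ndufb9, of the membrane arm, had the smallest p of complex I between NSG and WT hosts (0.28 ± 0.12, adjusted p = 0.523).

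Complex II, succinate dehydrogenase, has 4 subunits, of which 2 were lower in Rag2-/- than in WT hosts without overlap, beside 6.72% of all genes. The set of 4 is too small to read this as a difference from that share. Sdhd, a membrane anchor (chromosome 9, 50596357 to 50603812), measured 339, 334, 331 and 326 TPM in the WT libraries. It was 303, 245, 227 and 238 TPM in the Rag2-/- libraries and 232, 254, 343 and 338 TPM in the NSG libraries. All Rag2-/- values and NSG replicates 1 and 2 lay below all WT values (Rag2-/- against WT -0.40, -0.67 to -0.13, adjusted p = 0.0947). Sdha, the flavoprotein, was 194, 179.6, 173 and 177 TPM in Rag2-/- libraries, below the 206, 203, 203 and 195 TPM of WT libraries by a small margin (-0.16 ± 0.05, adjusted p = 0.106). Sdhb, the iron-sulfur subunit, differed by 0.05 (-0.05 to 0.15) and Sdhc, the other anchor, by 0.00 between the same hosts.

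Complex III had 4 of its 8 genes below 0 between Rag2-/- and WT hosts and 7 of 8 between Rag2-/- and NSG hosts. Uqcrb, a small subunit next to the ubiquinone site (ENSMUSG00000021520, chromosome 13, 66900617 to 66905378, minus strand), had the smallest p of all members between NSG and WT hosts. It was 327, 327, 318 and 309 TPM in the NSG libraries, above the 265, 281, 261 and 260.1 TPM of the WT libraries and the 270.4, 271, 289.7 and 297 TPM of the Rag2-/- libraries. The difference was 0.26 between NSG and WT (0.16 to 0.36, adjusted p = 0.203) and -0.18 between Rag2-/- and NSG (-0.29 to -0.08, adjusted p = 0.126). Pseudogenes with nearly the same sequence were also measured, among them Gm2962 (98.2% identity over 225 bases) at a mean of 80.5 TPM. Uqcr11, one of the smallest subunits, was 154, 159.9, 109 and 134 TPM in the Rag2-/- libraries, 201, 216, 163 and 150.1 TPM in the WT libraries and 138, 170.2, 277 and 239 TPM in the NSG libraries, with overlap throughout. Uqcrh, the hinge protein, was lower in every Rag2-/- library than in any WT library (182 ± 16.3 against 212 ± 5.78 TPM, adjusted p = 0.274). The 2 core proteins Uqcrc1 and Uqcrc2 differed by at most 0.06 in any comparison.

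Complex IV, cytochrome c oxidase, was the complex with the largest median difference between Rag2-/- and NSG hosts, -0.19, and all 15 of its genes were below 0 there. Cox7c (chromosome 13, 86044816 to 86046904, minus strand), a small structural subunit, was 381, 421, 415 and 378 TPM in the NSG libraries, above all WT libraries at 338, 349, 309.5 and 321 TPM. All Rag2-/- libraries, at 309, 339, 339 and 362 TPM, also lay below the NSG values. The difference was 0.27 between NSG and WT (0.14 to 0.41, adjusted p = 0.342) and -0.24 between Rag2-/- and NSG (-0.37 to -0.11, adjusted p = 0.125). Ndufa4, once assigned to complex I, was 268, 259, 255 and 279.9 TPM in the Rag2-/- libraries, below the 311, 343, 294 and 284 TPM of WT and the 318, 346, 287 and 306 TPM of NSG libraries. Its differences were -0.21 (-0.36 to -0.06, adjusted p = 0.111) and -0.24 (-0.39 to -0.09, adjusted p = 0.158). Cox5b, a zinc-binding subunit, was 153, 154, 153 and 159.8 TPM in the Rag2-/- libraries and 157, 214, 234 and 205 TPM in the NSG libraries (-0.37 ± 0.11, adjusted p = 0.179), where only NSG replicate 1 reached the Rag2-/- range. Cox7a2l was 292, 316, 282 and 274 TPM in the Rag2-/- libraries, below the 355, 339, 334 and 317 TPM of the WT libraries (adjusted p = 0.192). Cox6c was -0.19 ± 0.06 between Rag2-/- and NSG (adjusted p = 0.202). The abundant Cox6a1, Cox4i1 and Cox5a differed by at most 0.09 in any comparison.

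Complex V is built of a catalytic head, a c-ring, a peripheral stalk and small membrane subunits. Atp5a1 and Atp5b of the head and Atp5c1, the gamma chain that turns inside it, differed by at most 0.09 in any comparison, while the central stalk subunits Atp5d and Atp5e were lower in every Rag2-/- library than in any WT library. Atp5d, the delta chain, was 263, 262, 242 and 257 TPM in WT libraries and 221, 219, 181 and 208 TPM in Rag2-/- libraries (-0.31, -0.51 to -0.10, adjusted p = 0.096). Atp5e, the epsilon chain, was 190.4, 207, 205 and 192 TPM in WT libraries and 164, 159, 119 and 121 TPM in Rag2-/- libraries (-0.51 ± 0.23, adjusted p = 0.232). In NSG libraries Atp5e was 112, 121, 246 and 232 TPM.

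Atp5k, the e subunit at the membrane (ENSMUSG00000050856, chromosome 5, 108433244 to 108434448, minus strand), had the largest difference of all members. It was 168, 161, 153 and 132 TPM in the WT libraries and 109.9, 85.1, 58.4 and 55.5 TPM in the Rag2-/- libraries. In the NSG libraries it was 40.6, 68.0, 209.9 and 185 TPM, below, within and above the other hosts. The difference between Rag2-/- and WT was -1.03 (-1.97 to -0.09, adjusted p = 0.201), and between NSG and WT -0.58 (-1.52 to 0.36, adjusted p = 0.717).

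Of the c subunit genes, Atp5g1 was 61.5, 54.4, 60.6 and 59.6 TPM in the Rag2-/- libraries, below the 66.7, 67.7, 66.5 and 62.1 TPM of WT and the 63.4, 76.2, 69.3 and 67.1 TPM of NSG libraries (adjusted p = 0.194 and 0.158). A processed pseudogene, Gm10039, matched it at 99.8% over 411 bases and stood at a mean of 245 TPM, so this gene's value is uncertain. Atp5g2 differed by at most 0.07, and Atp5g3 was 278, 282, 281 and 222 TPM in WT libraries and 151, 157, 318 and 279 TPM in NSG libraries. Of the peripheral stalk, Atp5j was 134, 138, 116 and 120.1 TPM in the NSG libraries, above the 113, 113, 106 and 109 TPM of WT and the 105, 107, 108 and 114 TPM of Rag2-/- libraries. Its differences were 0.20 between NSG and WT (0.07 to 0.33, adjusted p = 0.422) and -0.22 between Rag2-/- and NSG (-0.35 to -0.09, adjusted p = 0.142). Atp5h was also above WT in every NSG library (0.33 ± 0.10, adjusted p = 0.393), with Gm10250, a pseudogene of 99.7% identity over 291 bases, at a mean of 143 TPM. Atp5o, the stalk subunit at the top of the head, was -0.28 ± 0.11 between Rag2-/- and WT (adjusted p = 0.189), and 48% of its exons lie within another gene.

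**Figure D5:**
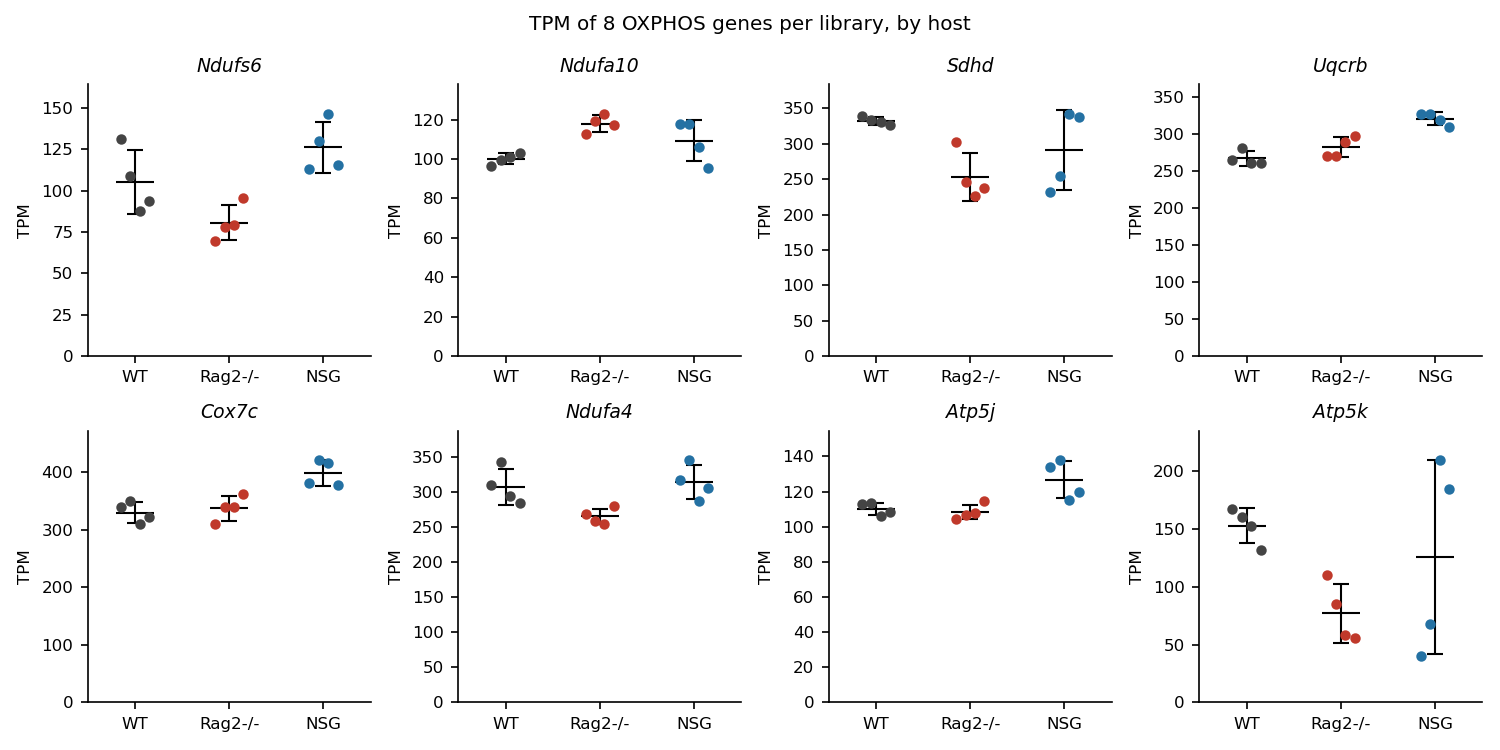
TPM per library (vertical axes, from 0) of 8 OXPHOS genes in WT, Rag2-/- and NSG hosts. Points are libraries, and bars give the mean and SD of 4. Ndufs6, Ndufa4, Uqcrb, Cox7c and Atp5j have no overlap between Rag2-/- and NSG points, Ndufa10, Sdhd, Ndufa4 and Atp5k none between Rag2-/- and WT points, and the NSG points of Atp5k run from 40.6 to 209.9 TPM.

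The 8 members that are no subunits were described apart. Sdhaf4, an assembly factor of complex II, was 39.5, 43.5, 30.1 and 34.6 TPM in WT libraries and 30.3, 19.6, 21.97 and 22.2 TPM in Rag2-/- libraries, where only replicate 1 reached the WT range (-0.64, -1.03 to -0.24, adjusted p = 0.0788). Without NSG replicate 4 it was called (adjusted p = 0.0464). Atp5s, a coupling factor of the ATP synthase, was -0.29 ± 0.09 between Rag2-/- and NSG (adjusted p = 0.168). Sdhaf1, with 70% of its exons in another gene, Sdhaf2 and Sdhaf3 had adjusted p of 0.27 or more in every comparison. The pseudogenes Cox6c2, Ndufs6b and Ndufb4c matched Cox6c, Ndufs6 and Ndufb4 at 96.6% or more and had means of 24.9, 9.82 and 5.37 TPM. In all, 20 of the 87 members had another annotated gene of at least 95% identity over 200 bases or more at a mean of at least 1 TPM. One of them was Ndufab1 at 15.3 TPM, whose copies Ndufab1-ps and Gm4459 stood at 48.9 and 44.3 TPM. Ndufb1-ps, left out by its symbol, had a mean of 111 TPM.

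The genes that build and supply the complexes were examined as lists. No gene of the 7 lists was called in any comparison. Between Rag2-/- and WT hosts, 9 of 43 assembly factors were lower and 1 higher at an unadjusted p below 0.05, beside 8.66% and 12.3% of all genes, with a median of -0.03. Coa3, an assembly factor of complex IV, was 171, 169, 153 and 158 TPM in WT libraries and 131, 141, 124 and 133 TPM in Rag2-/- libraries, at an adjusted p of 0.0439 with a difference of -0.30 that is under the fold limit. Of 77 mitochondrial ribosomal proteins, which translate the mitochondrially encoded subunits, 14 were lower and 3 higher at this p (median -0.05). Mrpl51 had a difference of -0.40 (adjusted p = 0.0392). Against NSG, 13 of the 77 were lower and 0 higher (median -0.08), beside 4.84% and 7.72% of all genes. Between NSG and WT, 8 were higher and 0 lower, beside 4.93% and 4.23% of all genes.

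The genes around the chain were counted in the same way between Rag2-/- and WT hosts, where 12.3% of all genes were higher and 8.66% lower at an unadjusted p below 0.05. The lists are small, and no count here is read as a difference from those shares. Of 29 genes for mitochondrial DNA expression and maintenance, 2 were higher and 2 lower, and Grsf1, an RNA-binding protein of mitochondrial RNA granules, was at 0.30 (adjusted p = 0.023). Of 17 regulators of mitochondrial biogenesis, 4 were higher and 1 lower. Tfe3, a transcription factor of lysosomal genes, was at 0.39 (adjusted p = 0.0314) and Sirt3, the mitochondrial deacetylase, at -0.40 (adjusted p = 0.0326). Sirt3 measured 21.1, 21.04, 20.4 and 20.1 TPM in WT libraries and 15.3, 16.4, 13.4 and 16.8 TPM in Rag2-/- libraries. Of 21 genes for electron carriers and coenzyme Q synthesis, 2 were higher and 3 lower, and Sqor, which feeds electrons from sulfide into ubiquinone, was 27.1, 23.1, 29.0 and 26.5 TPM in WT libraries and 36.8, 39.1, 36.7 and 33.4 TPM in Rag2-/- libraries (0.45 ± 0.08, adjusted p = 0.0154). Of 25 genes of the tricarboxylic acid cycle and pyruvate dehydrogenase, 0 were higher and 3 lower, Idh2 among them (-0.32, adjusted p = 0.0569). Of 16 genes for adenine nucleotide exchange, uncoupling and ATP synthase inhibition, 0 were higher and 3 lower, with Vdac1 at -0.18 and Chchd2 at -0.30. The 6 differences named with an adjusted p below 0.05 (Coa3, Mrpl51, Grsf1, Tfe3, Sirt3 and Sqor) all lay under the fold limit of 0.5, and 2.06% of all genes were higher and 0.739% lower at an adjusted p below 0.05 and any fold.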

How the data were processed

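RNA was measured in 12 libraries of sorted MLL-AF9 cells, 4 per host. Per the study's methods, the authors aligned paired-end reads to mm10 with HISAT2 on Galaxy, took raw gene counts and computed the deposited TPM from these. The counting tool and annotation are not given in the sources used here. Symbols, coordinates and exon lengths were taken from GENCODE M21 (GRCm38), in which 55141 of 55401 genes were found. TPM times exon length gave whole numbers of reads, within 0.1, for 98.7% to 98.8% of values, and depth comes from them.

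log2(TPM + 1) of 15026 genes (mean TPM at or above 1) was fitted with limma 3.58.1 in R 4.3.3 (trend, 3 hosts, no covariate), and p-values were adjusted by the Benjamini-Hochberg method over all genes. The fit was checked on simulated data. Copies were sought with blastn among GENCODE M21 transcripts, and motifs as exact letters in RefSeq promoters (GRCm38.p6).

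Members and lists were chosen with earlier results of these data known. By rule, the members named were the 2 highest and the 2 with the smallest p per complex and comparison, those without overlap in 2 comparisons, isoforms, members that are no subunits and those next to the limit. Other members named (such as Ndufa1, Ndufa2, Ndufa12, Ndufv2, Atp5e and Atp5k) and the promoters printed were chosen after their values were seen. So were the marker genes given by name, such as the C1q genes, Mpo, Itgam, Igkc and Ncr1. Alternatives were other pseudocounts, filters, scalings, fits and left-out libraries, and, chosen after seeing the data, voom on recovered reads and the 79 subunits alone.

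The labels call libraries biological replicates without naming the cultures or mice behind them, so p-values measure the spread between libraries. Some values of single genes are not reported here.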

Additional observations from a re-analysis of the deposited data

Results flagged for a closer look

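In a few groups of 4 libraries, 1 library stood far from the other 3 by Dixon's ratio of gap to range. Atp5g3 in WT replicate 4, the lowest of its host at 222 TPM beside 278 to 282, had a ratio of 0.933. Cox5a in WT replicate 1, the highest at 124 TPM, had 0.841, and Cox5b in Rag2-/- replicate 4, the highest at 159.8 TPM, had 0.87. The summed TPM of complex II in Rag2-/- replicate 1, the highest of its host, had 0.921. These were 4 of 156 groups examined, where chance alone gives 7.8.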

How the results depend on the processing

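The direction of the median over the members was kept in all 3 comparisons under every alternative and with every library left out. It ran from -0.10 to -0.06 between Rag2-/- and WT, from -0.17 to -0.09 between Rag2-/- and NSG and from 0.04 to 0.08 between NSG and WT. The count of called members was 0 except in 4 cases. Between Rag2-/- and WT, the 8 libraries alone gave 4, and leaving out 1 library gave 0 to 1 (1 without NSG replicate 4, Sdhaf4). Between Rag2-/- and NSG, voom on the recovered reads gave 1, and leaving out 1 library gave 0 to 1 (1 without Rag2-/- replicate 4), and Ndufs6 was the gene in both. The cause was not tested. Over all genes, 221, 32 and 0 were called in the 3 comparisons, and 47 (without WT replicate 2) to 355 (8 libraries alone), 4 (without Rag2-/- replicate 3) to 90 (without Rag2-/- replicate 4) and 0 to 2 under the other settings. Voom called 283, 71 and 0. With the replicate block, 0 members were called in each comparison, and 14, 22 and 0 members were lower at an unadjusted p below 0.05. Shares of all genes at this p were not counted under the alternatives. The numbers did not pair the libraries (correlations of same-numbered libraries' deviations -0.091 to 0.032). The mitochondrial genes gave no value under any setting, being listed at 0, and leaving them out left every value as it was. Depth limits the minor isoforms, such as Cox6a2, most.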
